A study of Mus musculus with 19 samples.

Results

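Bulk RNA of type 2 conventional dendritic cells (cDC2) sorted from the spleen was compared between mice lacking Xbp1 (Xbp1 KO, 3 libraries) and wild type mice (WT, 4 libraries). These 7 libraries, chosen by their labelled cell type and genotype, are part of 19 in the series. All mice were C57BL6, and each library came from 5000 to 50000 sorted cells. The labels give no treatment, age or sex, and name neither a Cre line nor the exons removed, so the sources used here do not say in which cells Xbp1 was lost. Set beside them are 3 cDC2 libraries from mice lacking Xbp1 and Ire1 (Xbp1-Ire1 KO) and, from type 1 conventional dendritic cells (cDC1), 3 WT and 3 Xbp1 KO libraries. Sample descriptions name WT replicates 1 and 2 of cDC2 after floxed Xbp1 and Ire1 alleles (fl-fl), while replicates 3 and 4 are named WT. In cDC1, 2 WT libraries carry the fl-fl name and 1 the name WT, so the mix differs between the cell types. The labels do not say whether replicates came from separate mice, so a p-value speaks only for the spread among these libraries, and part of that spread may be technical.

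The 7 libraries held 11536884 to 14603380 counts. Markers were those of the labelled cell type. The cDC2 receptors Sirpa, at 1300 to 1701 CPM (counts scaled to a common library size), and Clec4a4, at 102 to 138 CPM, were at most 68.0 and 0.547 CPM in any cDC1 library. The cDC1 receptors Xcr1 and Clec9a were at 6.59 to 19.5 and 7.18 to 17.6 CPM in these cDC2 libraries, against at least 813 and 205 CPM in cDC1.

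cDC2 are the splenic dendritic cells best known for presenting antigen on MHC class II to CD4 T cells. IRE1, encoded by Ern1, is a kinase and RNase in the membrane of the endoplasmic reticulum (ER) that responds to unfolded proteins. It excises a short intron from Xbp1 mRNA, and the protein made from the spliced form is a transcription factor for genes of protein folding, translocation, glycosylation and secretion. In several cell types that lack XBP1, IRE1 is known to be overactive and to cleave other mRNAs, which is called regulated IRE1-dependent decay.

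The stem-loops that IRE1 cuts in Xbp1 are shown because reported substrates of the enzyme are among the genes whose response to Xbp1 loss differed between cDC2 and cDC1. Both lie in the coding sequence of ENSMUST00000063084 on the + strand (GRCm38, GENCODE M21), with cut sites 26 bases apart, and the loop of 7 bases is in capitals.
Xbp1 intron start, chr11:5524266-5524292: tctgctgagtCCGCAGCactcagacta
Xbp1 intron end, chr11:5524292-5524318: atgtgcacctCTGCAGCaggtgcaggc
The first has 6 and the second 7 paired bases in its stem. A loop of CNGCAGN with at least 4 stem pairs, searched on the transcript strand, was present in 3.10% of 21877 transcripts and in 2.45% of the 4330 whose length lies within 20% of that of Xbp1. The substrates Bloc1s1, Itgb2, Tapbp, Hgsnat and Ergic3 held none in the transcript examined. The bare letters CTGCAG occur 3 times in Bloc1s1, 1 time in Tapbp, 5 times in Itgb2, 2 times in Hgsnat and 0 times in Ergic3. Of transcripts of like length, 43.1% hold them for Bloc1s1 and 85.7% for Tapbp. They are in capitals in 1 of the 3 places in Bloc1s1 and in that of Tapbp.
Bloc1s1, chr10:128922687-128922712, - strand: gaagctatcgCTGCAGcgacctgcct
Tapbp, chr17:33926225-33926250, + strand: gtctgggcacCTGCAGctacctccag
A match of letters is a description of the sequence and not a cut site.

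Xbp1 mRNA was lower in each Xbp1 KO library than in each WT library but did not pass the test. It lay at 160.4, 103, 72.6 and 76.4 CPM in WT replicates 1 to 4 and at 44.4, 56.9 and 42.0 CPM in Xbp1 KO replicates 1 to 3. The groups did not overlap, and the 2 fl-fl libraries were the highest. The log2 fold change was −1.11 ± 0.24 (SE), with an adjusted p of 0.247 (edgeR's quasi-likelihood test, Benjamini-Hochberg over 11646 genes). Against the fl-fl libraries alone it was −1.46 (adjusted p = 0.001), and against the libraries named WT it was −0.64 (adjusted p = 0.989). With no filter on low counts it was −1.08 (adjusted p = 0.0393). Xbp1-Ire1 KO libraries held 63.3, 78.1 and 57.3 CPM. A count over the whole gene does not separate intact transcripts from ones missing an exon, so these values neither check nor go against the genotype labels. Ern1 lay at 20.6 to 32.1 CPM in WT and 26.7 to 30.7 CPM in Xbp1 KO, with overlapping groups and a log2 fold change of 0.09 ± 0.18 (adjusted p = 0.878). Its sign turned against the fl-fl libraries alone (−0.053), without WT replicate 4 (−0.0076) and with replicate numbers as a block (−0.015).

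Few genes were called in cDC2. At an adjusted p under 0.05, the threshold for a call, 12 of 11646 genes (0.103%) passed, of which 8 rose in Xbp1 KO (0.0687%) and 4 fell (0.0343%). An unadjusted p under 0.05 was reached by 1127 genes (9.68%). The same contrast in cDC1 called 1270 of 11353 genes (11.2%), with 4.28% that rose and 6.91% that fell. Like the count in cDC2, that in cDC1 depended on the WT libraries, with 2926 genes called when the 2 fl-fl libraries were the controls and 345 when the 1 named WT was, an alternative chosen after seeing the data, in which that library's spread was assumed to be that of the other groups. Unless stated otherwise, calls below are those against all WT libraries. For the lists below, the background of calls in cDC1 is the 4.28% and 6.91% above. In cDC2 the background at an unadjusted p under 0.05 is 4.23% of genes higher and 5.44% lower. DESeq2, a second tool, called 46 genes, among them, of the genes named here and not called by edgeR, Xbp1, Itgb2, Apoe, Tyms, Blk, Cd163 and Mmp9 but no other member of the lists described. The 12 genes lie in 4 stretches of the genome, on chromosomes 2, 7, 11 and 14, and none is a known component of the unfolded protein response. All positions are GRCm38.

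On chromosome 2 the neighbours Plcb1 (chr2:134786067-135475258, + strand) and Plcb4 (chr2:135659011-136014593, + strand) rose. Both encode phospholipase C beta enzymes, which act downstream of G protein-coupled receptors. Plcb1 had 1 count in WT replicate 1 and 0 in the other WT libraries, against 9.65, 7.34 and 7.66 CPM in Xbp1 KO. Xbp1-Ire1 KO libraries held 6.82, 7.55 and 6.53 CPM. Plcb1 was thus close to absent in WT and present in each knockout library. Its ratio of level in Xbp1 KO to WT was 397, with a counting interval (95%) of 70.8 to 15700, from 329 counts against 1 (adjusted p = 1.28e-05). Plcb4 lay at 0.850, 0.148, 3.66 and 2.66 CPM in WT and at 38.8, 48.2 and 48.6 CPM in Xbp1 KO. The Xbp1 KO libraries were all far above the WT libraries, as were those of Xbp1-Ire1 KO at 35.5, 46.1 and 41.9 CPM. Plcb4 had a log2 fold change of 4.64 ± 0.47 (adjusted p = 0.000403) in cDC2 and 1.58 ± 0.22 (adjusted p = 0.000403) in cDC1. The difference between cell types was 3.07 ± 0.58 (adjusted p = 0.00378).

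On chromosome 7 Itgad (chr7:128154376-128223816, + strand) rose, the integrin chain CD11d that pairs with the beta 2 chain. WT libraries held 11.7, 12.1, 5.45 and 23.4 CPM, Xbp1 KO libraries 127, 88.7 and 51.6 CPM, and Xbp1-Ire1 KO libraries 74.0, 67.2 and 56.8 CPM. Every WT library lay below every library of both knockouts, and the log2 fold change of Xbp1 KO was 2.76 ± 0.37 (adjusted p = 0.00521). Cox6a2 (chr7:128205435-128206387, - strand), the heart and muscle isoform of a cytochrome c oxidase subunit and a marker gene of plasmacytoid dendritic cells, lies within Itgad on the other strand. It had at most 0.340 CPM in WT, with 10 counts over the 4 libraries, against 7.12, 5.49 and 6.54 CPM in Xbp1 KO. Cox6a2 had a log2 fold change of 4.90 ± 0.41 (adjusted p = 4.85e-05), and Xbp1-Ire1 KO libraries held 7.30, 7.18 and 10.2 CPM. The sources used here do not say whether counting used strand, and without strand reads of Cox6a2 and Itgad cannot be told apart. The integrin genes next to Itgad were not called against the 4 WT libraries, Itgax (CD11c) with a log2 fold change of 0.31 (adjusted p = 0.481) and Itgam (CD11b) with 0.49 (adjusted p = 0.404). Against the fl-fl libraries alone Itgam was called higher by edgeR (0.64, adjusted p = 0.0186).

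On chromosome 11, 4 genes were called within 6.00 Mb, between 8.41 and 2.43 Mb from Ern1 on its side towards Xbp1. Arf2 (chr11:103966739-103985337, + strand), an ADP-ribosylation factor of vesicle traffic, lay at 39.2, 49.8, 29.7 and 36.5 CPM in WT and rose to 105, 139 and 85.4 CPM in Xbp1 KO. Xbp1-Ire1 KO libraries held 33.1, 45.1 and 35.6 CPM, within the WT range. Arf2 had a log2 fold change of 1.50 ± 0.19 (adjusted p = 0.00446). Arl5c (chr11:97989578-97996181, - strand), a GTPase of the ARF-like family and a member of the list of homeostatic maturation, lay at 30.9, 41.9, 49.7 and 43.1 CPM in WT and at 144, 132 and 139 CPM in Xbp1 KO. All 3 Xbp1 KO libraries were well above the 4 WT libraries. Arl5c had a log2 fold change of 1.74 ± 0.25 (adjusted p = 0.00822), and 50.8, 83.4 and 31.2 CPM in Xbp1-Ire1 KO.

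The other genes called on chromosome 11 fell. Lsm12 (chr11:102162497-102185296, - strand), an LSM domain protein, lay at 80.5, 64.7, 86.1 and 94.1 CPM in WT and at 37.9, 32.1 and 39.8 CPM in Xbp1 KO. The groups did not overlap, and Xbp1-Ire1 KO libraries, at 89.6, 87.8 and 101 CPM, were at the upper end of WT. Lsm12 had a log2 fold change of −1.15 ± 0.15 (adjusted p = 0.0043). Med1 (chr11:98152154-98193293, - strand), a subunit of the Mediator complex that links transcription factors to RNA polymerase II, lay at 129.6, 136, 159.5 and 115 CPM in WT and at 76.5, 83.2 and 75.2 CPM in Xbp1 KO. Med1 had a log2 fold change of −0.79 ± 0.13 (adjusted p = 0.0295), and Xbp1-Ire1 KO libraries held 119.9, 108 and 115 CPM. The call of Med1 was lost on leaving out any 1 library other than WT replicate 4, with adjusted p of 0.0711, 0.0853 and 0.07 without WT replicates 1, 2 and 3, and of 0.254, 0.175 and 0.218 without Xbp1 KO replicates 1, 2 and 3.

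On chromosome 14, 4 genes were called within 16.7 Mb. Supt16 (chr14:52160414-52197416, - strand), the large subunit of the histone chaperone FACT, lay at 45.8, 44.2, 67.0 and 49.9 CPM in WT and rose to 171, 173 and 206 CPM in Xbp1 KO. Xbp1-Ire1 KO libraries were spread from 57.2 over 125 to 143 CPM. Supt16 had a log2 fold change of 1.82 ± 0.25 (adjusted p = 0.00521). Mettl17 (chr14:51884842-51893039, + strand), which acts in the assembly of the mitochondrial ribosome, lay at 11.9, 12.3, 10.7 and 8.31 CPM in WT and fell to 1.27, 2.07 and 1.64 CPM in Xbp1 KO. Its Xbp1-Ire1 KO libraries were at 10.2 CPM, within the WT range, and at 6.44 and 2.43 CPM, between the other groups. Mettl17 had a log2 fold change of −2.70 ± 0.43 (adjusted p = 0.0256).

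Mtmr9 (chr14:63519651-63543982, - strand), an inactive phosphatase of the myotubularin family, lay at 24.8, 27.0, 23 and 24.4 CPM in WT and at 101, 203 and 92.9 CPM in Xbp1 KO. Xbp1-Ire1 KO replicate 2 was raised as well, at 88.2 CPM, while replicates 1 and 3 were at 22.9 and 24.1 CPM. Mtmr9 had a log2 fold change of 2.42 ± 0.40 (adjusted p = 0.033). The kinase Blk, of the list of B cell genes, lies 0.147 Mb from Mtmr9, with other tested genes between them. Blk had the same pattern as Mtmr9, with 12.2 to 15.9 CPM in WT and 36.3 to 56.2 CPM in Xbp1 KO. Its Xbp1-Ire1 KO libraries held 9.89, 32.8 and 10.2 CPM. Blk did not pass the test (log2 fold change 1.67 ± 0.34, adjusted p = 0.178). In other edgeR fits it was called, with the compared groups alone (1.68, adjusted p = 0.00257) and with no filter on low counts (1.69, adjusted p = 0.0117). Against the fl-fl libraries alone it was called as well (1.61, adjusted p = 0.0474). Adamdec1 (chr14:68563380-68582095, - strand), a secreted metalloprotease-like protein of dendritic cells and macrophages, lay at 7.40, 9.23, 6.98 and 7.73 CPM in WT and had 0 counts in every Xbp1 KO library. With 387 counts in WT and a floor of 3 counts over the Xbp1 KO group, it was at least 107-fold lower (adjusted p = 4.85e-05). Xbp1-Ire1 KO libraries held 7.30, 4.20 and 5.69 CPM.

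The calls of Mettl17 and Mtmr9 depended on single libraries. For Mettl17 the adjusted p was 0.0876, 0.0939 and 0.0503 without WT replicates 1, 2 and 3 and 0.199, 0.109 and 0.132 without Xbp1 KO replicates 1, 2 and 3. For Mtmr9 it was 0.167, 0.148, 0.0845 and 0.12 without WT replicates 1 to 4 and 0.053 and 0.22 without Xbp1 KO replicates 1 and 2. The other 9 called genes, without Med1, kept their call in 7 of 7 such fits. Against the libraries named WT alone, 6 genes were called (0.0508% of 11812), and all 6 are among the 12, namely Plcb1, Plcb4, Cox6a2, Arf2, Lsm12 and Adamdec1. The other 6 had adjusted p of 0.181 to 0.598. Against the fl-fl libraries alone, 740 of 11915 genes (6.21%) were called, the 12 among them.

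**Figure D1:**
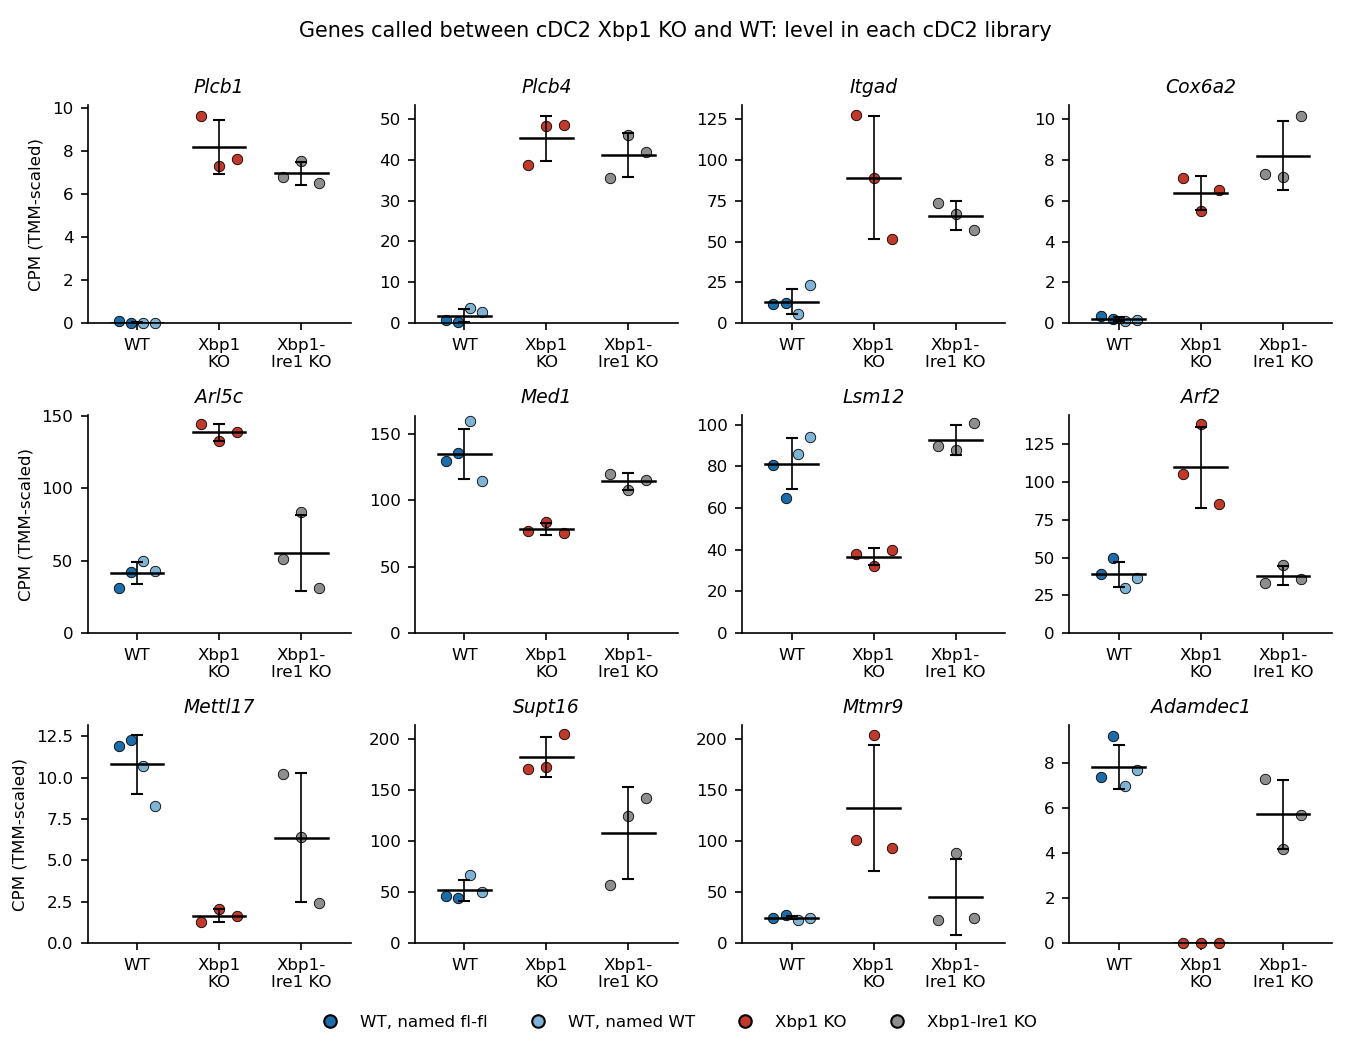
Level of the 12 called genes in each cDC2 library, in CPM on linear axes that start at 0; points are libraries, horizontal lines means and bars SD (n = 4 WT, 3 Xbp1 KO, 3 Xbp1-Ire1 KO). Plcb1, Plcb4, Itgad and Cox6a2 were high in both knockouts, while Arf2, Lsm12 and Adamdec1 in Xbp1-Ire1 KO lay near WT.

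Of the 12 genes, 9 were also called in cDC1 in the same direction, all but Arl5c, Mtmr9 and Adamdec1. In cDC1 the log2 fold changes were 4.04 for Cox6a2 (adjusted p = 3.75e-05), 1.81 for Arf2 (adjusted p = 9.95e-06) and −0.85 for Lsm12 (adjusted p = 0.000771). Supt16, Mettl17, Itgad and Med1 changed by 1.78, −2.22, 2.00 and −0.51 there. The effect was larger in cDC2 for Plcb4 and for Mtmr9, whose log2 fold change in cDC1 was −0.32 and whose difference between cell types was 2.74 (adjusted p = 0.00278). The difference for Adamdec1 (adjusted p = 0.0301) rested on few counts, with 4, 26 and 17 in cDC1 WT and 31, 0 and 0 in cDC1 Xbp1 KO, and was not called without cDC1 Xbp1 KO replicate 1, the library that holds the 31 (adjusted p = 1), without cDC1 WT replicate 1 (0.0658) or without any 1 cDC2 Xbp1 KO library (0.0662 to 0.0823). Against the WT libraries of 1 name the differences of Mtmr9 and Adamdec1 were not called either, except that of Mtmr9 against fl-fl. For Arl5c the difference was 1.37 (adjusted p = 0.0622, and 0.0402 without cDC1 WT replicate 2).

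The stretches on chromosomes 11 and 14 begin and end at called genes, so the share of small p-values in them is a description. Without the called genes, an unadjusted p under 0.05 was reached by 13 of 100 genes (13%) in the stretch on chromosome 11 and by 27 of 129 (20.9%) in that on chromosome 14, against 9.68% of all genes. Over whole chromosomes the share was 16.2% of 382 genes on chromosome 14, 10.3% of 944 on chromosome 11 and at most 12.1% on any other. Within 20 Mb of Xbp1, which lies on chromosome 11 as Ern1 does, 0 of 102 genes were called by edgeR. Within 10 Mb of Ern1, 4 of 232 were called and 28 (12.1%) had an unadjusted p under 0.05. The genome around the targeted alleles was not genotyped in these data, so alleles of the mouse lines and the loss of Xbp1 cannot be told apart at these genes.

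**Figure D2:**
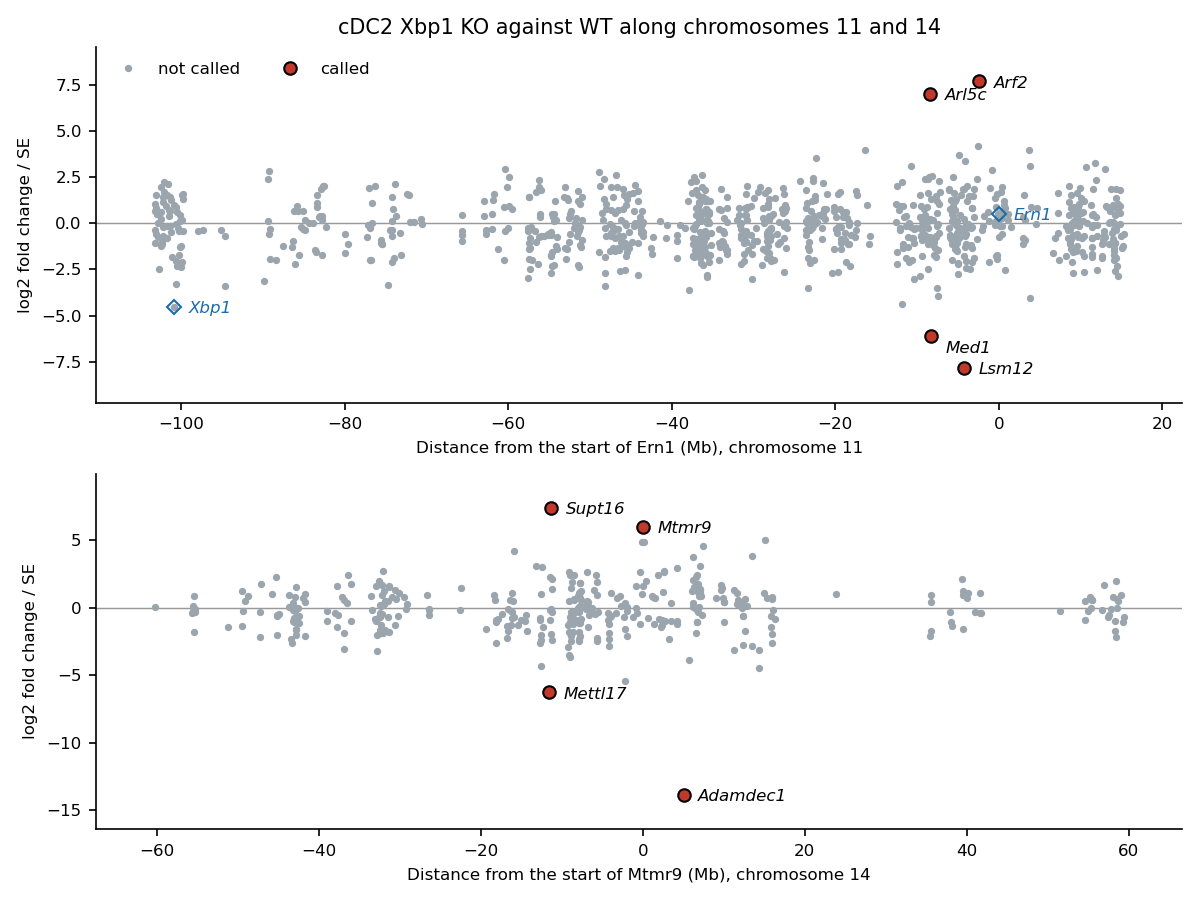
Log2 fold change divided by its SE for each gene tested on chromosomes 11 and 14, cDC2 Xbp1 KO against WT, by distance in Mb from Ern1 and from Mtmr9; large red points are called genes and diamonds Xbp1 and Ern1. The 4 called genes of chromosome 11 sit within 10 Mb of Ern1, and none of the called genes is near Xbp1.

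Against the 4 WT libraries together, edgeR called no reported substrate of the IRE1 RNase in cDC2, while 5 of them fell in cDC1. Against the fl-fl libraries alone it called 2 lower, Itgb2 and Tapbp (2.74% of all genes were called lower there), and against those named WT it called 0. In cDC2, 10 of 15 were tested, and 1 (Itgb2) had a lower level at an unadjusted p under 0.05, with a median log2 fold change of 0.07 against −0.02 over all genes. The summed level of the list was 2096 to 2708 CPM in WT, 1804 to 1964 CPM in Xbp1 KO and 2299 to 2435 CPM in Xbp1-Ire1 KO. Xbp1 KO thus lay below WT of either name in this sum, in which the abundant Itgb2 and Tapbp weigh most. Mean log2 levels of the list overlapped, at 5.04 to 5.37 in WT and 5.13 to 5.52 in Xbp1 KO. In cDC1 the median over 9 tested members was −1.82. Bloc1s1, a subunit of a lysosome positioning complex, lay at 25.6 to 32.2 CPM in cDC2 WT and 21.8 to 29.1 CPM in cDC2 Xbp1 KO, with overlapping groups (log2 fold change −0.17 ± 0.16, adjusted p = 0.722). In cDC1 it fell from 25.3 to 31.9 CPM to 1.96 to 2.98 CPM, and the difference between the effects was 3.42 (adjusted p = 3.24e-07). Tapbp (tapasin), which loads peptide on MHC class I, lay at 839.5 to 1293 CPM in cDC2 WT and 792 to 856 CPM in cDC2 Xbp1 KO (−0.29 ± 0.15, adjusted p = 0.528, and −0.52 with adjusted p = 0.0223 against fl-fl). It fell to 117 to 173 CPM in cDC1 Xbp1 KO, and the effects differed by 2.89 (adjusted p = 6.31e-07). For Hgsnat, a lysosomal acetyltransferase, the log2 fold change was −0.17 ± 0.13 in cDC2 (adjusted p = 0.640) and −2.81 in cDC1, a difference of 2.64 (adjusted p = 1.22e-07). Over the tested members, the difference between cell types was called for 5 of 11, all with the effect in cDC2 less negative. Of all 12185 genes, 2.17% had a called difference, 1.84% with the higher and 0.328% with the lower effect in cDC2.

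Itgb2, the beta 2 integrin chain shared by CD11a to CD11d, had the smallest unadjusted p of the substrates in cDC2. It lay at 958, 1020.0, 969.6 and 927 CPM in WT and at 735, 762 and 695 CPM in Xbp1 KO, which did not overlap, while Xbp1-Ire1 KO libraries held 1169.6, 1191 and 1183 CPM. Its log2 fold change was −0.41 ± 0.10, with an unadjusted p of 0.000971 and an adjusted p of 0.314 in edgeR's quasi-likelihood test, and an exact permutation test of 3 against 4 libraries cannot go below 0.0571. Xbp1-Ire1 KO against Xbp1 KO, which share the Xbp1 KO libraries with this comparison, gave a log2 fold change of 0.69 ± 0.10 (adjusted p = 0.0332), a call that ended on leaving out any 1 Xbp1 KO or Xbp1-Ire1 KO library. DESeq2 called Itgb2 between Xbp1 KO and WT (adjusted p = 0.0169), as did edgeR against the fl-fl libraries alone (−0.44, adjusted p = 0.0319) but not against those named WT (−0.38, adjusted p = 0.981). In cDC1 Itgb2 fell by 3.60 ± 0.19 on the log2 scale, from 317 to 542 CPM to 32.1 to 37.1 CPM. The effects differed by 3.20 ± 0.19 (adjusted p = 2.92e-09). Rnf130, a ubiquitin ligase outside the substrate list, had the other difference with that adjusted p, with 353 to 382 CPM in cDC2 WT, 308 to 314 CPM in cDC2 Xbp1 KO (−0.22 ± 0.10, adjusted p = 0.511) and a fall of 3.34 on the log2 scale in cDC1.

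**Figure D3:**
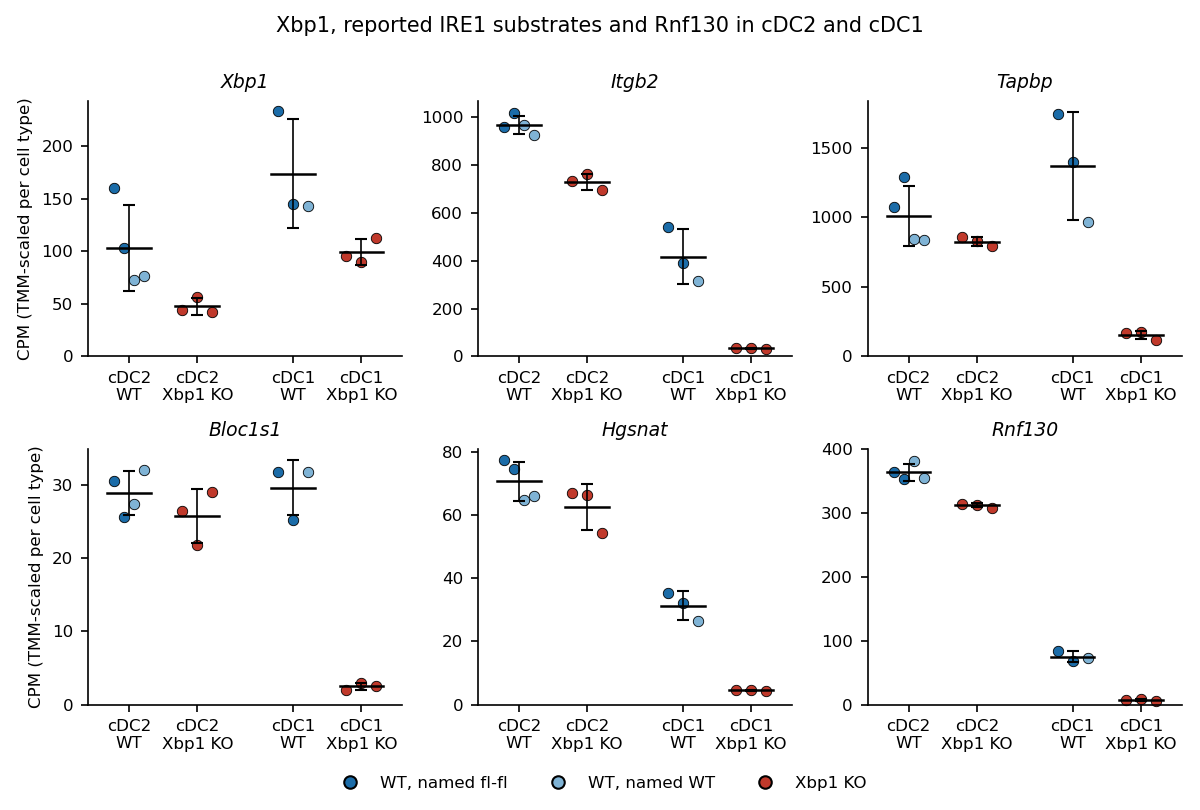
Level of Xbp1, 4 reported IRE1 substrates and Rnf130 in each WT and Xbp1 KO library of cDC2 and cDC1, in CPM scaled within each cell type, on axes that start at 0; lines are means and bars SD (n = 4 and 3 in cDC2, 3 and 3 in cDC1). The cDC1 Xbp1 KO libraries sit near 0 for all but Xbp1. For these same genes the cDC2 Xbp1 KO libraries sit much closer to their WT libraries. For Xbp1, Itgb2 and Rnf130 they lie below every cDC2 WT library.

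Genes that XBP1 is known to drive were not called in cDC2 against the 4 WT libraries, while some were when the fl-fl libraries alone were the controls. Of 24 genes of the translocon and signal peptidase, which bring proteins into the ER, 0 were called by edgeR, 8 were lower and 0 higher at an unadjusted p under 0.05 (background 5.44% and 4.23%), and the median log2 fold change was −0.24. Ssr3, a subunit of the translocon-associated complex, lay at 178, 132, 105 and 108 CPM in WT and at 86.4, 86.7 and 96.8 CPM in Xbp1 KO (−0.54 ± 0.17, adjusted p = 0.468). The groups did not overlap, and the fl-fl libraries were the highest. Against these alone 4 translocon genes were called lower, Ssr3 among them (−0.78, adjusted p = 0.00817), and against those named WT 0 were. The signal peptidase subunit Spcs3 had −0.37 (adjusted p = 0.461). In cDC1, 10 translocon genes fell and 0 rose, with a median of −0.52, and the difference between cell types was called for 2.

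Of 30 N-glycosylation genes in cDC2, 0 were called and 6 were lower at an unadjusted p under 0.05, among them the oligosaccharyltransferase subunit Stt3b (−0.47 ± 0.15, adjusted p = 0.468), the 1 gene of the list called against fl-fl alone (−0.66, adjusted p = 0.0201). The median was −0.12 in cDC2 and −0.44 in cDC1, where 10 fell. ER chaperones and disulfide enzymes had a median of 0.07 over 30 genes in cDC2, with 0 called, 2 higher and 1 lower at an unadjusted p under 0.05. The chaperone Hspa5 (BiP) lay at 657, 613, 985 and 1034 CPM in WT and at 1043, 1520.5 and 1409.6 CPM in Xbp1 KO. All Xbp1 KO libraries were above all WT libraries, by little for the WT library nearest to them (0.69 ± 0.24, adjusted p = 0.471), and the log2 fold change was 1.06 against the fl-fl libraries (adjusted p = 0.0223) and 0.39 against those named WT. In cDC1, 3 chaperones rose and 13 fell, and for P4hb, a protein disulfide isomerase, the effects differed by 1.09 (adjusted p = 7.75e-05). Genes of ER-associated degradation had a median of −0.03 over 24 in cDC2, and Herpud1, which assembles the degradation complex, had 0.52 ± 0.20 (adjusted p = 0.475). Against fl-fl alone 1 degradation gene was called higher, Herpud1 (0.95, adjusted p = 0.00183), and 3 lower. ER to Golgi transport had a median of −0.12 over 36 genes, with 0 called in cDC2 (1 higher and 2 lower against fl-fl alone) and 16 that fell in cDC1.

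Targets of ATF4 and CHOP, transcription factors of the integrated stress response, had a median of 0.00 over 29 genes in cDC2, with 3 higher and 3 lower at an unadjusted p under 0.05 and 0 called. In cDC1 the median over 35 was 0.97, with 22 that rose and 1 that fell. The difference was called for 5 of 35, in 4 of them with the larger effect in cDC1. Chac1, a glutathione-degrading enzyme induced by this response, lay at 0.850 and 0.886 CPM in the fl-fl libraries, at 5.79 and 4.24 CPM in those named WT and at 6.55, 9.41 and 5.85 CPM in Xbp1 KO. Its level thus divided the WT libraries by name, and the log2 fold change was 1.31 ± 0.55 (adjusted p = 0.502). Against fl-fl alone it was 3.05 (adjusted p = 0.00236), and 7 targets were called higher and 0 lower, where 3.47% of all genes were called higher. Of 20 aminoacyl-tRNA synthetases, which charge tRNAs, 0 were called in cDC2 (median 0.05) and 11 rose in cDC1 (median 0.66). Cars, the cysteine enzyme, had 0.39 ± 0.19 in cDC2 (adjusted p = 0.527) and 1.50 in cDC1, a difference of −1.11 (adjusted p = 0.00674).

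Of 25 genes of cholesterol biosynthesis and uptake, 0 were called in cDC2, also against the WT libraries of either name. Their median log2 fold change was −0.21, and 22 were negative, as were 6219 of all 11646 genes. At an unadjusted p under 0.05, 1 was lower (5.44% of all genes). In cDC1 the median was −1.02 and 16 fell (6.91% of all genes). The difference was called for 9, all with the cDC2 effect less negative (1.84% of all genes had a higher effect in cDC2). Targets of LXR and fatty acid synthesis had a median of 0.10 over 17 genes, and Apoe, a lipid carrier, had 0.83 ± 0.22 (adjusted p = 0.405). Apoe was called without Xbp1 KO replicate 3 (1.12, adjusted p = 0.026).

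**Figure D4:**
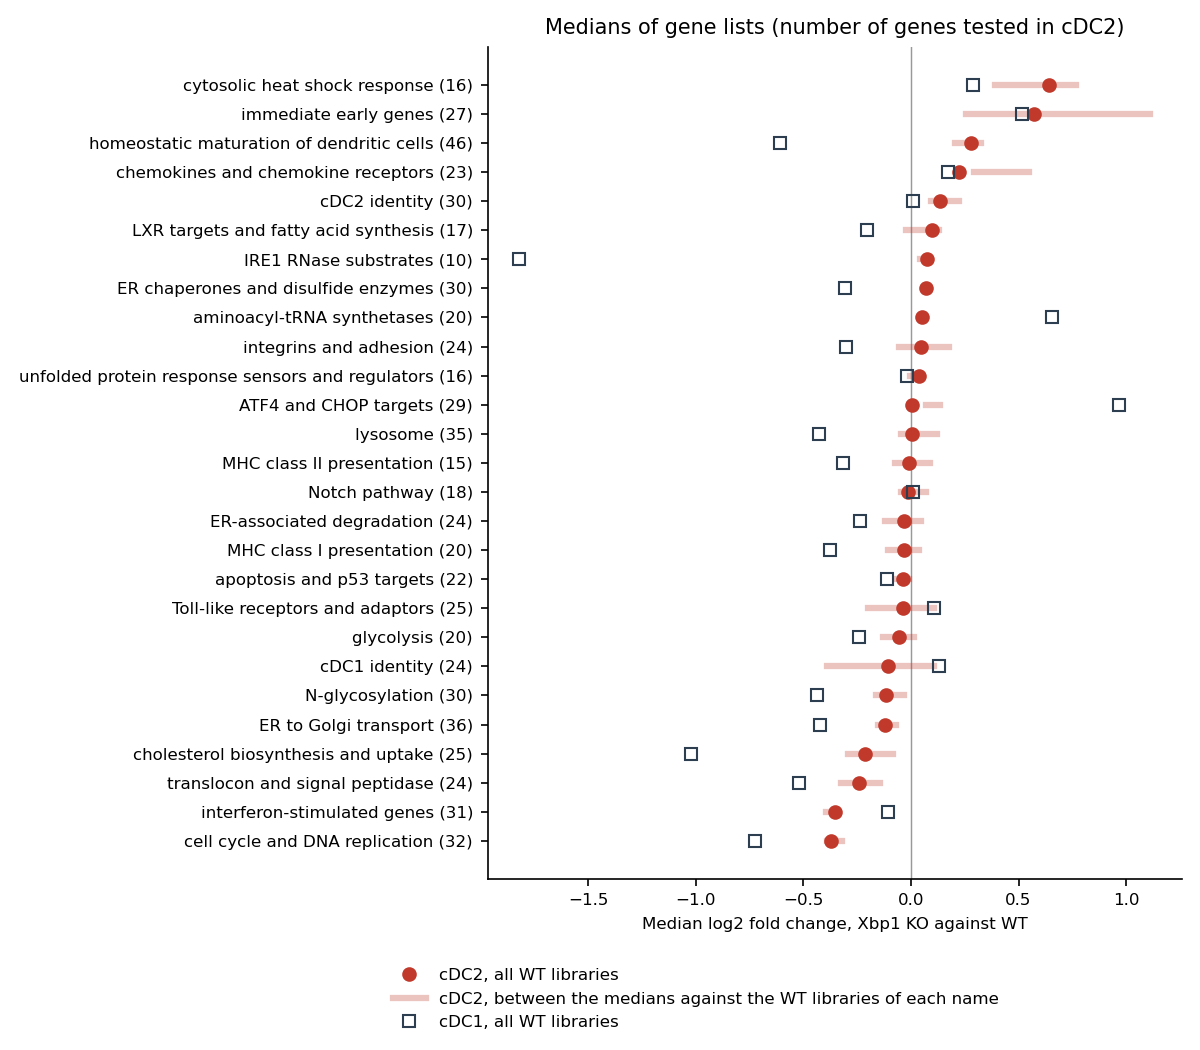
Median log2 fold change of Xbp1 KO against WT in 27 gene lists, with the number of genes tested in cDC2 in brackets; filled circles are cDC2, open squares cDC1, and each band joins the cDC2 medians against the WT libraries of either name. IRE1 substrates, cholesterol genes and ATF4 and CHOP targets sit at 0.07, −0.21 and 0.00 in cDC2 and at −1.82, −1.02 and 0.97 in cDC1.

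The 477 genes raised in cDC1 and tested in cDC2 had a median log2 fold change of 0.75 in cDC1 and 0.22 in cDC2, where 18% were higher at an unadjusted p under 0.05 (4.23% of all genes) and 6 were called. The 777 lowered in cDC1 had a median of −0.84 there and −0.17 in cDC2, where 14.8% were lower (5.44% of all genes) and 3 were called. The difference between cell types was called for 33 and 214 of them. These genes were chosen by their calls in cDC1, which favours larger values there than in cDC2. The difference uses the same cDC1 libraries, so these medians and counts are a description.

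Genes of homeostatic maturation, the program by which dendritic cells mature without infection, had a median log2 fold change of 0.28 over 46 genes in cDC2. Of these, 11 were higher and 0 lower at an unadjusted p under 0.05 (4.23% and 5.44% of all genes), and Arl5c was called. In cDC1 the median was −0.61, with 1 that rose and 11 that fell (4.28% and 6.91% of all genes). The difference was called for 6 of 47 (2.17% of all genes). Ccr7, the chemokine receptor that guides maturing cells to lymph nodes, lay at 459 and 346 CPM in the fl-fl libraries, at 1668 and 1463 CPM in those named WT and at 2079, 2120.0 and 1629 CPM in Xbp1 KO. The libraries named WT were near Xbp1 KO, and the fl-fl libraries were far below. The log2 fold change was 0.98 ± 0.42 (adjusted p = 0.502), with 2.27 against the fl-fl libraries (adjusted p = 5.17e-05) and 0.31 against those named WT (adjusted p = 0.989). Stat4, a signal transducer of interleukin 12, had 0.52 ± 0.15 (adjusted p = 0.438). Against fl-fl alone 9 of the list were called, all higher, Stat4 among them (0.66, adjusted p = 0.0411).

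Genes of cDC2 identity had a median of 0.14 over 30, with 0 called, 7 higher and 1 lower at an unadjusted p under 0.05 (4.23% and 5.44% of all genes). Csf1r, a growth factor receptor, had 0.42 ± 0.14 (adjusted p = 0.471). Against fl-fl alone 4 identity genes were called higher and 0 lower, where 3.47% of all genes were called higher, and against those named WT 0 were called. For MHC class II presentation the 15 tested genes lay between −0.27 and 0.25, with 0 at an unadjusted p under 0.05, while 1 rose and 4 fell in cDC1. MHC class I presentation had a median of −0.03 over 20 genes, with 0 called and 3 lower at an unadjusted p under 0.05, among them the peptide transporter Tap1 (−0.40), which was called against fl-fl alone (−0.66, adjusted p = 0.0288). Of 35 lysosomal genes 0 were called in cDC2 (median 0.00) and 17 fell in cDC1 (6.91% of all genes), and the difference was called for 11 (2.17% of all genes). The lipid cofactor Gm2a differed by 1.91 (adjusted p = 1.08e-06) and the protease Ctsb by 1.13 (adjusted p = 0.0089), each with the lower effect in cDC1. In cDC2 against fl-fl alone, 2 lysosomal genes were called higher and 1 lower (3.47% and 2.74% of all genes). Gm2a was called lower there (−0.44, adjusted p = 0.0197).

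Toll-like receptors and adaptors had a median of −0.04 over 25 genes, with 6 higher and 0 lower at an unadjusted p under 0.05 (4.23% and 5.44% of all genes) and 0 called. The lipopolysaccharide co-receptor Cd14 lay at 11 and 12.5 CPM in the fl-fl libraries, at 28.9 and 30.3 CPM in those named WT and at 54.5, 67.2 and 34.0 CPM in Xbp1 KO (1.33 ± 0.36, adjusted p = 0.414). Tlr2, a receptor of bacterial lipoproteins, had 0.71 ± 0.20 (adjusted p = 0.438). Both were lowest in the fl-fl libraries, against which they were called (2.15 and 1.10, adjusted p = 0.00236 and 0.00281). Chemokines and their receptors had a median of 0.22 over 23 genes, with 6 higher and 1 lower at an unadjusted p under 0.05 and 0 called. Against fl-fl alone 9 were called higher and 0 lower, where 3.47% of all genes were called higher, and against those named WT 0 were called. Ccr9, a homing receptor of gut and thymus, lay at 4.87 to 9.97 CPM in WT and at 9.79, 50.6 and 53 CPM in Xbp1 KO, so replicate 1 lay within the WT range. Its log2 fold change was 2.39 ± 0.56 (adjusted p = 0.300), and without Xbp1 KO replicate 1 it was 2.85 and called (adjusted p = 0.0451). Ccr9 was also called by edgeR against fl-fl alone (2.77, adjusted p = 0.0444) and with no filter on low counts (2.42, adjusted p = 0.0291).

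Immediate early genes, which stimuli and tissue handling induce within minutes, had a median of 0.57 over 27 genes, with 11 higher and 0 lower at an unadjusted p under 0.05 and 0 called. Nr4a1, a nuclear receptor of this class, lay at 802 and 870.0 CPM in the fl-fl libraries, at 4578 and 3985 CPM in those named WT and at 5339, 5929.8 and 4569 CPM in Xbp1 KO. Xbp1 KO overlapped the libraries named WT and not the fl-fl libraries. The log2 fold change was 2.66 against fl-fl (adjusted p = 1.04e-06) and 0.30 against those named WT (adjusted p = 0.989). The mean log2 level of the list was 7.82 to 7.97 in fl-fl, 9.04 to 9.07 in libraries named WT, 9.06 to 9.54 where Xbp1 was lost and 8.72 to 9.21 where Ire1 was lost with it. Against fl-fl 18 of the 27 were called, all higher (3.47% of all genes), and against those named WT 0 were, by edgeR, where 6 genes in all were called.

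Cytosolic heat shock genes had a median of 0.64 over 16, with 3 higher at an unadjusted p under 0.05. The chaperone regulator Hsph1 lay at 20.8 to 40.0 CPM in WT and at 34.6, 196 and 54.4 CPM in Xbp1 KO. The Xbp1-Ire1 KO libraries held 34.0, 408 and 33.7 CPM. Replicate 2 of each knockout stood above the rest. The mean log2 level of the list was 7.54 in Xbp1 KO replicate 2 and 6.46 and 6.63 in replicates 1 and 3.

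Interferon-stimulated and cell cycle genes held no call by edgeR against the 4 WT libraries. Against fl-fl alone 3 of each list were called lower, among them Rtp4 (−1.12, adjusted p = 0.0435) and Mcm5 (−0.75, adjusted p = 0.0255), and against the libraries named WT 0 were. Over all genes, 6219 of 11646 had a negative log2 fold change, and 5.44% were lower at an unadjusted p under 0.05. Of 31 interferon-stimulated genes 28 had a negative log2 fold change, 9 of them at an unadjusted p under 0.05, with a median of −0.35. Rtp4, a chaperone of receptors, had −0.91 ± 0.28 (adjusted p = 0.461), and Irf7, a transcription factor for type I interferon genes, had −0.66 ± 0.22. Mean log2 levels of the list overlapped, at 5.02 to 5.52 in WT and 4.71 to 5.19 in Xbp1 KO. Of 32 cell cycle and DNA replication genes 29 had a negative log2 fold change, 9 at an unadjusted p under 0.05, with a median of −0.37 in cDC2 and −0.72 in cDC1. Tyms, which makes thymidylate for DNA, lay at 38.0, 36.4, 39.1 and 44.7 CPM in WT and at 25.7, 24.1 and 25.3 CPM in Xbp1 KO. The groups did not overlap, and Xbp1-Ire1 KO libraries held 46.7, 32.5 and 40.6 CPM. Tyms had a log2 fold change of −0.66 ± 0.15 (adjusted p = 0.300 by edgeR and 0.0369 by DESeq2). Mcm5, a helicase subunit of replication, had −0.59 ± 0.17 (adjusted p = 0.438). Medians of Xbp1-Ire1 KO against the same WT libraries were 0.08 for the interferon-stimulated and 0.34 for the cell cycle list.

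Markers of other splenic cells were present and differed between libraries. Red pulp macrophage genes had a positive log2 fold change in 13 of 13 tested of 14 (median 1.07), 4 of them at an unadjusted p under 0.05 and 0 called. Their summed level was 620 to 1162 CPM in WT and 2513, 1570 and 617 CPM in Xbp1 KO, so replicates 1 and 2 were above WT and replicate 3 below. The scavenger receptor Cd163 lay at 4.85 to 6.87 CPM in WT and 23, 19.5 and 8.18 CPM in Xbp1 KO (1.47 ± 0.40, adjusted p = 0.405), and the adhesion molecule Vcam1 at 47.6 to 123 and 407, 259 and 41.5 CPM. Itgad followed the same order of replicates, 127, 88.7 and 51.6 CPM, as did Apoe, and the part of macrophage RNA in those values was not tested. In a bulk library, more cells of a type and more RNA per cell cannot be told apart. Plasma cell genes summed to 144 to 228 CPM in WT and 231 to 343 CPM in Xbp1 KO (median 0.74 over 6), with Jchain at 1.46 ± 0.50. B cell genes summed to 136 to 179 and 152 to 234 CPM, T cell genes to 29.0 to 45.0 and 24.6 to 43.2 CPM and neutrophil genes to 131 to 192 and 73.2 to 104 CPM. Monocyte genes summed to 2444 to 5892 CPM in WT and 6024 to 7294 CPM in Xbp1 KO, in a list that holds Nr4a1, also an immediate early gene. Without Nr4a1 the sums overlapped, at 1333 to 1634 and 1464 to 1861 CPM. The monocyte marker Ly6c2 lay at 2.95 to 8.93 and 1.64 to 6.30 CPM (log2 fold change −0.63). Ccr2, a further marker, lay at 125 to 173 and 143 to 176 CPM (0.17), and neither was called. Plasmacytoid dendritic cell genes summed to 338 to 463 CPM in WT and 354 to 382 CPM in Xbp1 KO, which overlapped. Their mean log2 level did not overlap, at 2.96 to 3.25 in WT and 3.73 to 3.85 in Xbp1 KO. Without Cox6a2, the 1 called member, it lay at 3.44 to 3.73 and 3.82 to 3.97 in libraries not scaled by TMM. The groups were apart there too, by little, and the 2 pairs of ranges are not on the same scale. Siglech, a defining receptor of these cells, lay at 0.844 to 2.54 CPM in WT and 3.09 to 6.30 CPM in Xbp1 KO (log2 fold change 1.24, adjusted p = 0.531). Tcf4, a further marker, lay at 49.9 to 61.0 and 65.3 to 71.1 CPM (0.30, adjusted p = 0.505). Bst2, a surface marker of them, lay at 28.0 to 41.6 and 23.3 to 31.5 CPM. The part of such cells in the level of Cox6a2 was not tested. Mmp9, a protease of neutrophils that dendritic cells also make, had −1.16 ± 0.25 (adjusted p = 0.240). It was called by edgeR against fl-fl alone (−1.38, adjusted p = 0.00903) and with no filter on low counts (−1.14, adjusted p = 0.0331). In these lists, 2 members had 0 counts in all 7 libraries, Clec4f of the macrophage and Thy1 of the T cell list.

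**Figure D5:**
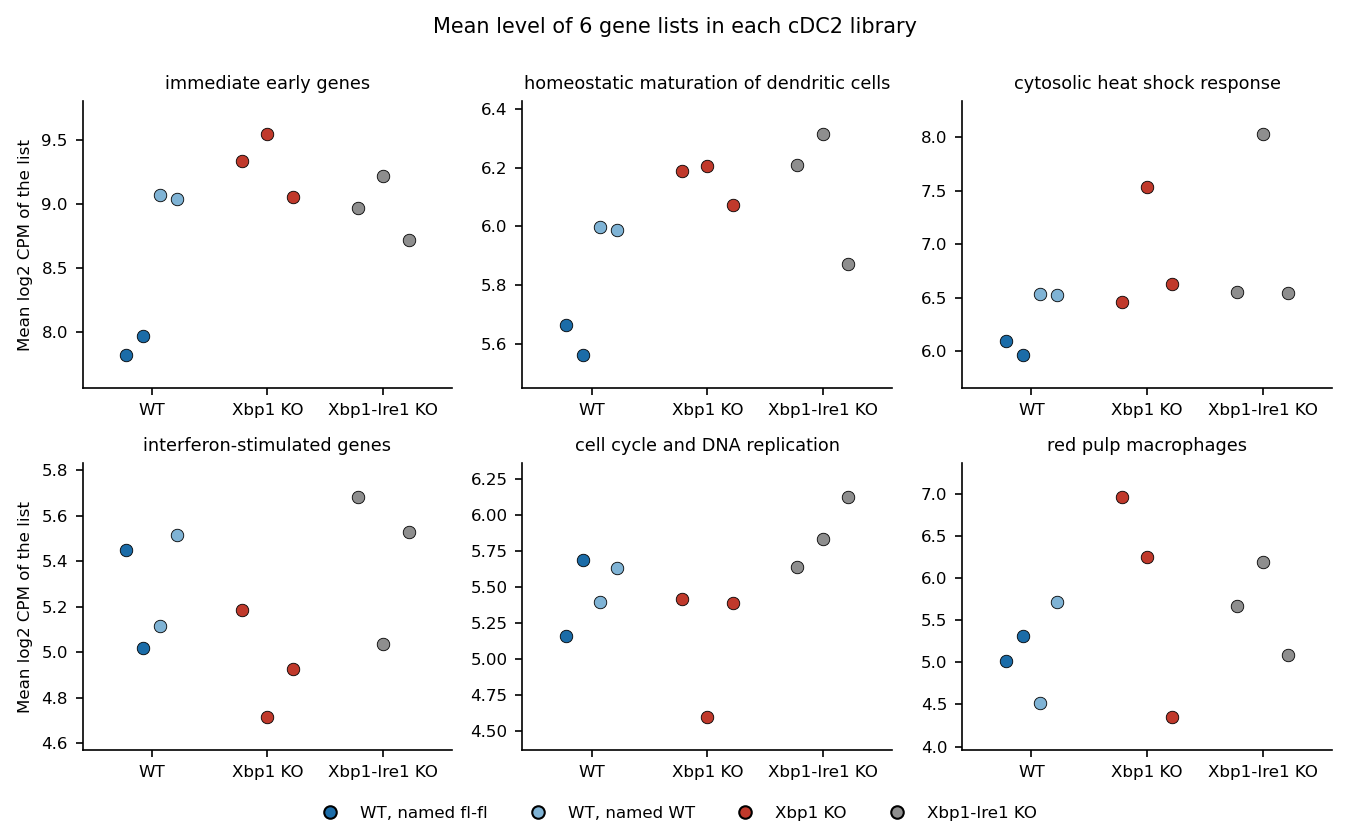
Mean log2 CPM of 6 gene lists in each cDC2 library, with WT libraries coloured by the name in their description. Immediate early genes are at 7.82 to 7.97 in the fl-fl libraries and at 8.72 to 9.54 in all others, and red pulp macrophage genes are highest in Xbp1 KO replicate 1.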

How the data were processed

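Counts per gene symbol were deposited by the authors for 24421 symbols, per the file headers with 1 column per library. The authors also deposited log2 values for 11441 genes in cDC2, those above 1 CPM in at least 3 libraries. These equal log2 CPM from counts raised by 0.5, shifted in each library by 1 constant between −0.0301 and 0.0717. The submitters' processing notes list mm10, TopHat2 2.1.0, limma 3.42.2, Trimmomatic 0.35, SAMtools 0.1.19 and FastQC 0.11.4. For the counting program, its annotation and its use of strand: not given in the sources used here.

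The raw counts went into edgeR 4.0.16 (R 4.3.3). The filter filterByExpr (minimum count 10, minimum total 15) left 11646 genes, libraries were scaled by TMM, and the 10 cDC2 libraries of 3 genotypes were fitted together. The quasi-likelihood test was adjusted by Benjamini-Hochberg over these genes, with calls at an adjusted p under 0.05. The SE is the size of the log2 fold change over the root of F. The difference between cell types was a contrast in all 19 libraries, which were treated as independent. Some description numbers occur in both cell types, and the labels do not say whether such libraries came from the same mouse. CPM are TMM-scaled within a cell type, and unscaled for sort markers, summed lists and the hand-picked markers of other cells. List means are of log2 CPM with a prior count of 2, TMM-scaled over the tested genes. The mean without Cox6a2 instead used unscaled libraries over all symbols. Counting intervals and floors cover counting error only. An exact permutation test of 3 against 4 libraries cannot give p below 0.0571. The fit was tested on simulated data.

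The members and gene lists were chosen with earlier results of these data known. By rule, Xbp1 and Ern1 were named, then up to 12 raised and 12 lowered called genes whose mean log2 CPM was 3 or more and whose groups were apart. Each list gave its called members, up to 6, or the smallest p, up to 3, with the 2 most abundant for other cells, and the difference between cell types the 10 smallest p. Plcb1, Adamdec1, Mettl17, Itgax, Gm2a and Ccr7 fall outside the rule and were named after their values were seen. Siglech, Bst2, Tcf4, Ly6c2 and Ccr2 were picked by hand as markers of other cells. A result withheld for evaluation is not reported here. Positions are GENCODE M21 (GRCm38), which held 11219 of the 11646 symbols. Alternatives used DESeq2 1.42.0 and limma 3.58.1. Figures used matplotlib 3.10.9 in Python 3.11.15.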

Additional observations from a re-analysis of the deposited data

Results flagged for a closer look

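Among 50 named genes and 38 lists, 4 had 1 WT library apart from the other 3, by the gap to the nearest library as a share of the range of the 4 libraries on a log2 scale. Chance gives about 1 in 20. The share was 1 for Plcb1, which had 1 count in 1 WT library, 0.987 for Csf1r, highest in WT replicate 2, 0.832 for Irf7, lowest in WT replicate 3, and 0.901 for the list of erythroid cells and platelets.

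The effect of Xbp1 loss differed between the cell types for 264 genes in edgeR's quasi-likelihood test. Differences are cDC2 minus cDC1 on the log2 scale. For the called genes they were 3.07 for Plcb4, 2.74 for Mtmr9 and −9.09 for Adamdec1, which depends on the prior count since Xbp1 KO libraries of cDC2 hold 0 counts. The difference for Blk was 2.62 (adjusted p = 0.0451) and was not called, with adjusted p of 0.0578 to 0.172, on leaving out any 1 library except cDC1 WT replicate 1 or 2. Genes that fell in cDC1 and were not called in cDC2 gave 3.20 for Itgb2, 2.89 for Tapbp, 3.42 for Bloc1s1, 2.64 for Hgsnat and 3.12 for Rnf130. Smaller differences were 1.09 for P4hb, 0.79 for Spcs3, 1.13 for Ctsb, 1.91 for Gm2a and −1.11 for Cars. Against the libraries named WT alone, those of Spcs3, Ctsb and Mtmr9 were not called, with adjusted p of 0.0953, 0.18 and 0.0559.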

How the results depend on the processing

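The number of genes called between cDC2 Xbp1 KO and WT, 12, depended most on the name of the WT libraries, with 740 against fl-fl and 6 against those named WT, and the cause was not tested. It was 46 with DESeq2, 21 with no filter on low counts and 3 with limma on the deposited log2 values, and 9 to 13 on leaving out 1 library. With DESeq2 size factors, a stricter filter, limma-voom or the compared groups alone it was 11 to 14. Xbp1-Ire1 KO against Xbp1 KO, with 4 calls, gave 11 with DESeq2, 1 with the deposited log2 values and 2 to 8 on leaving out 1 library, with 2 without Xbp1 KO replicate 1 or Xbp1-Ire1 KO replicate 1 or 3 and 8 without Xbp1-Ire1 KO replicate 2. The difference between cell types, with 264 calls, gave 426 with DESeq2, 173 against the libraries named WT and 182 to 418 on leaving out 1 library, 418 being without cDC1 WT replicate 3. In cDC1, an alternative chosen after seeing the data gave 2926 calls against fl-fl and 345 against the 1 library named WT, beside 1270. Replicate numbers were not taken as pairs, since the labels state no pairing. Deviations of same-numbered WT and Xbp1 KO libraries correlated at 0.00847, −0.0333 and 0.115, and 1 of 3 Xbp1 KO libraries correlated best with its own number. These values cannot exclude pairing, because the WT deviations also hold the split between fl-fl and WT names. The numbers in the sample descriptions differ from the replicate numbers and were not tested as pairs. With the replicate number as a block the counts were 11, 3 and 216, and the calls of Arl5c, Med1 and Mettl17 were lost. Of the named genes run through these alternatives, only Ern1 changed sign, to −0.015 with the block, −0.053 against fl-fl and −0.0076 without WT replicate 4 (up to 0.20 without other libraries). Against fl-fl, 21 of them were newly called. Without strand, exon-level counts or the source of each replicate, these counts limit what can be said of the deletion itself, of overlapping genes and of variation between mice.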
